A study of Mus musculus with 8 samples.

Results

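Oxidative phosphorylation passes electrons from succinate and from NADH through the respiratory complexes of the inner mitochondrial membrane to oxygen, and uses the proton gradient that builds up to make ATP. Complex II (succinate dehydrogenase) feeds electrons from the citrate cycle into ubiquinone, complex III hands them to the mobile carrier cytochrome c, complex IV (cytochrome c oxidase) passes them to oxygen, and complex V is the ATP synthase. All subunits of complex II and most of complexes III, IV and V are encoded in the nucleus, and the heart, which depends on aerobic ATP supply, expresses them at high levels.

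The 36 genes described here are 4 subunits of complex II, 9 of complex III, 6 of complex IV and 15 of complex V, together with cytochrome c (Cycs) and the ATP synthase inhibitor Atpif1. They were chosen by name, from 39614 loci that carry a gene symbol, and all 36 were found. RNA-seq libraries, depleted of ribosomal RNA, came from the hearts, without atrial appendages, of 4 postnatal day 1 (P1) and 4 postnatal day 7 (P7) male Hsd:ICR(CD-1) mice. Each library was 1 animal. The labels name no treatment or genetic change, and the stages differ by age. The values are FPKM, fragments scaled to transcript length and to all mapped fragments. The files hold no fragment counts, so the count behind each value is unknown, and the read totals of the libraries were not used here. All 36 genes passed the filter, an FPKM of 1 or more in any heart, and their values ran from 49.2 to 7270.2 FPKM. A gene was called differentially expressed with a Benjamini-Hochberg adjusted p under 0.05 from limma, over all 43172 loci tested, and stage means that differed by 1.5-fold or more.

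In bulk tissue a change in the number of cells of one type and a change in RNA per cell cannot be told apart. The 8 cardiomyocyte markers summed to 19620.0 to 34971 FPKM in P1 and 24223 to 37657 in P7, with 0 of 8 called. The 6 fibroblast markers summed to 786 to 1638 FPKM in P1 and 1682 to 2105 in P7 (3 called higher), the 5 endothelial markers to 63.6 to 121 and 107 to 163 (2 called higher), the 5 leukocyte markers to 15.7 to 21.2 and 34.0 to 46.6 (1 called higher), and the 6 red cell markers to 1637 to 3851 and 3744 to 5024 (0 called). Of the annotated loci tested, 7.74% were called higher and 0.401% lower in P7. The leukocyte marker Cd3e stayed under an FPKM of 1 in every heart and was not tested. Lyz2 made up most of the leukocyte sum (mean 13.6 FPKM in P1 and 33.3 in P7), while Ptprc measured 0.92 and 1.20. Postn, alone among the 6 fibroblast markers, had a lower mean in P7 (344 in P1, 293 in P7). None of these markers was listed at 0 in every heart. The part of these cell types in the values of the respiratory genes was not tested.

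The hearts of one stage differed from each other. P7 replicate 3 held the highest P7 value for 34 of the 36 genes and P7 replicate 2 the lowest for 28. This order was not particular to these genes. The median log2(FPKM + 1) of annotated loci was 2.80, 2.54, 2.89 and 2.66 in P7 replicates 1 to 4. Annotated loci held 58.5%, 46.3%, 66.9% and 27.3% of all FPKM in those hearts. In P1 that median was highest in replicate 4 (2.76, against 2.22 to 2.51 in the other P1 hearts). P1 replicate 4 held the lowest P1 value for 20 genes and the highest for 11. P1 replicate 3 held the highest for 13 and the lowest for 10, so the P1 hearts did not differ by a common scale alone. Each heart's deviation from the others of its stage was set against transcript length over the 36 genes. Spearman's rho ran from -0.50 in P1 replicate 3 to 0.51 in P7 replicate 3, and was 0.39 in P1 replicate 4, as a description.

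Promoters of respiratory genes are known for sites of NRF-1 (core letters GCATGCGC), GABP (CCGGAAGT) and the ERR receptors (TNAAGGTCA). These letters were searched on both strands in 300 bases around the transcription start (250 before and 50 after) in RefSeq, GRCm38.p6, in which 29 of the 36 genes had 1 or more entries. The genes without one were Sdhc, Uqcrc2, Uqcrb, Uqcrq, Cyc1, Cox6c and Atp5a1. The NRF-1 letters were in 7 of 29 (24.1%: Sdhb, Uqcrc1, Uqcr11, Cycs, Atp5g2, Atp5k and Atp5l), against 3.05% of 27025 genes. The GABP letters were in 3 of 29 (10.3%: Uqcrh, Uqcr11 and Atp5h), against 4.31%, and the ERR letters in 2 of 29 (6.90%: Sdhd and Atp5g3), against 1.43%. A match is a description of letters and not a site. Genes with an entry and none of these letters included Cox7b (log2 fold change -0.91) and also Cox5b (0.69), Atp5d (0.72) and Atpif1 (0.65). The 150 bases before the start are printed for 1 gene with each motif (capitals: NRF-1 in Cycs, GABP in Uqcr11, ERR in Atp5g3) and for Cox7b, which holds none and had the lowest change of the 36 genes (GRCm38.p6, Cycs chr6:50566570-50566719 on the minus strand, Uqcr11 chr10:80406822-80406971 on the minus strand, Atp5g3 chr2:73911327-73911476 on the minus strand, Cox7b chrX:106015550-106015699 on the plus strand).
Cycs: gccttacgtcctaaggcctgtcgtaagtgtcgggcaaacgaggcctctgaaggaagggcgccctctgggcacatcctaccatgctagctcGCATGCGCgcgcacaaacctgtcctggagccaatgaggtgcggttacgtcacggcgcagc
Uqcr11: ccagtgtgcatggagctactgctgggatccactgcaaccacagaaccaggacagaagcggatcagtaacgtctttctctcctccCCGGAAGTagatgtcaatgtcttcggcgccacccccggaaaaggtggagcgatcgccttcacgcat
Atp5g3: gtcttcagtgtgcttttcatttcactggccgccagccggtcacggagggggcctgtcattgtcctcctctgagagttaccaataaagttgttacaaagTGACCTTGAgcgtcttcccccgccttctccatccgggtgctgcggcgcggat
Cox7b: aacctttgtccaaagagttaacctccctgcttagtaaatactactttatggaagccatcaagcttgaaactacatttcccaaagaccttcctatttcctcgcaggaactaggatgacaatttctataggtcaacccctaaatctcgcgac

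The study compared P7 with P1 hearts, because the mouse heart loses its regenerative capacity between these ages. None of the 36 genes passed the test (limma, 0 higher and 0 lower), whereas 7.74% of the 17960 annotated loci tested were called higher and 0.401% lower in P7. That background moved with single hearts: 1390 annotated loci were called higher with all 8 hearts, 156 without P1 replicate 2, 256 without P7 replicate 3, 279 without P7 replicate 1, 395 without P1 replicate 3, 689 without P7 replicate 4, 791 without P1 replicate 1, 978 without P7 replicate 2 and 2720 without P1 replicate 4. At an unadjusted p under 0.05 limma gave 5 genes higher (Uqcrc1, Atp5d, Atpif1, Cox5b and Atp5h) and 1 lower (Cox7b), against 25.6% and 4.1% of annotated loci. With array quality weights in limma, Uqcrc1, Atp5d and Atpif1 were called higher and Cox7b lower. Under those weights 2773 of the 17960 annotated loci were called higher and 178 lower. The fold change was positive for 31 genes (86.1%) and negative for 5 (Sdha, Uqcrc2, Cycs, Cox7b and Atp5f1), and it was positive for 67.6% of annotated loci. On the log2(FPKM + 1) scale the median change of the 36 genes was 0.33, beside 0.19 over all annotated loci. The distance between these medians, 0.14, was -0.01 without P1 replicate 4 (0.26 against 0.27), 0.03 without P7 replicate 3 (0.17 against 0.14) and 0.04 after correction for transcript GC content (0.26 against 0.22). With median-ratio scaling, which puts the median of annotated loci at 0.0021, the median of the 36 genes was 0.09 and 23 of them were positive. Every P7 heart lay above every P1 heart for 4 genes (Cyc1, Atp5d, Atp5h and Atpif1), against 17.3% of annotated loci, and no gene had every P7 heart below every P1 heart, against 2.69%. The order of the genes by level was nearly unchanged from P1 to P7 (Spearman's rho 0.98 over 36 genes, a description, since both stages share the same genes and lengths).

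**Figure D1:**
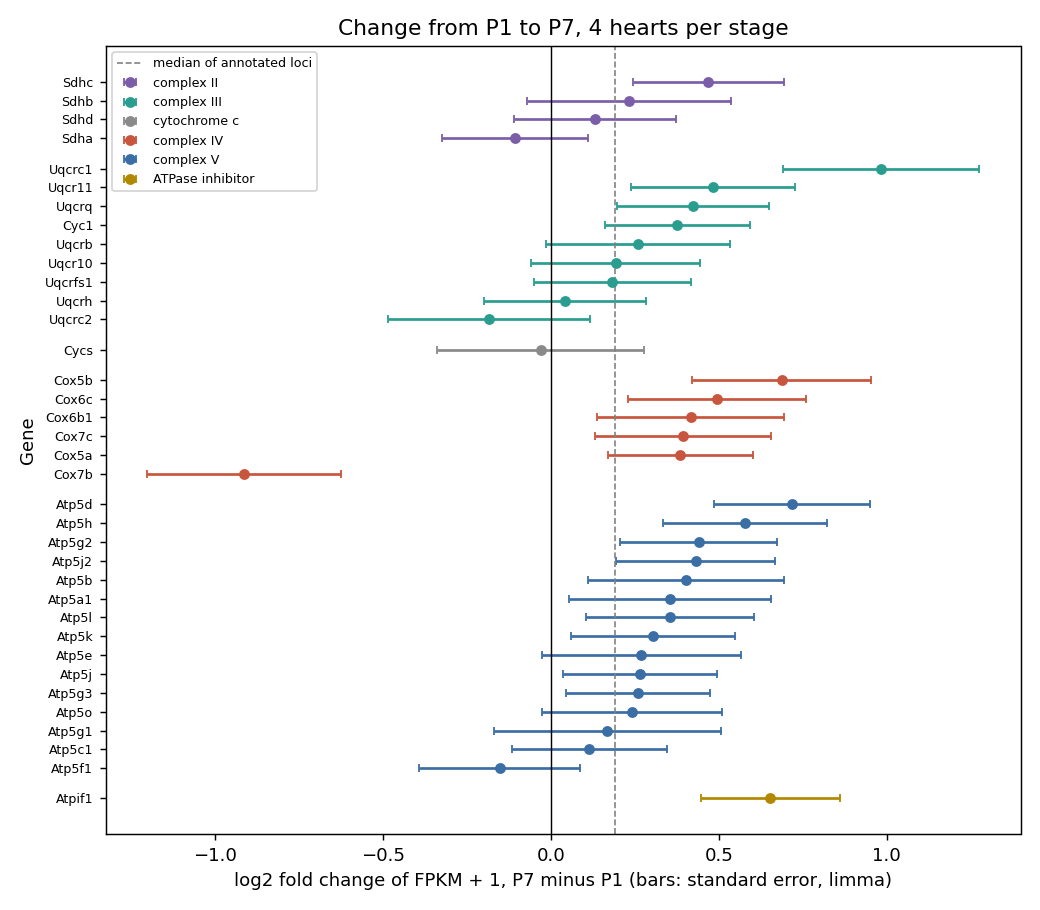
log2 fold change of FPKM + 1 from P1 to P7 (x axis, bars are limma standard errors, 4 hearts per stage) for each gene (y axis), coloured by complex. Most genes lie to the right of 0, around the dashed median of annotated loci (0.19), and Cox7b lies alone at -0.91.

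In complex II, Sdhc, one of the membrane anchors that bind ubiquinone, had the highest change of the 4 subunits. Sdhc measured 269, 244, 229.7 and 191 FPKM in the P1 hearts and 279.5, 266, 449.6 and 318 in the P7 hearts. Of the P7 hearts, 3 were above every P1 heart and P7 replicate 2 was just below P1 replicate 1 (log2 fold change 0.47 ± 0.22 SE, adjusted p = 0.285; 0.58 after GC correction). Sdha, the flavoprotein that oxidizes succinate, had the lowest change of the complex. Its FPKM was 593, 701, 616 and 536 in P1 and 517, 468, 736 and 576 in P7, and the groups overlapped (-0.11 ± 0.22, adjusted p = 0.777). The iron-sulfur subunit Sdhb (0.23) and the second anchor Sdhd (0.13) lay between them.

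Complex III held both the largest positive change of the 36 genes and a negative one, in its pair of core proteins. Uqcrc1, core protein 1 (chr9:108936648-108949640, GRCm38), measured 111, 95.2, 69.2 and 155 FPKM in P1 and 166, 153, 331 and 210.1 in P7. Its mean was 108 ± 35.96 (SD, n = 4) in P1 and 215 ± 81.03 in P7, and the groups met only at P1 replicate 4, which was above P7 replicate 2. The log2 fold change was 0.98 ± 0.29 (SE) with adjusted p = 0.0887. Without P1 replicate 4 the gene was called (1.18, adjusted p = 0.0292), and after correction for transcript GC content the change was 0.63 (adjusted p = 0.289).

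Uqcrc2, core protein 2, measured 259.8, 261, 217 and 388 FPKM in P1 and 269.6, 134, 373 and 255 in P7. P7 replicate 2 was the lowest of the 8 hearts and P1 replicate 4 the highest (-0.18 ± 0.30, adjusted p = 0.720), and without P7 replicate 2 the change was 0.10. Cyc1, the cytochrome c1 that passes electrons to cytochrome c, measured 343, 309, 324 and 229.6 FPKM in P1 and 344, 369, 497 and 355 in P7. All P7 hearts of Cyc1 were above all P1 hearts, by as little as the gap from P1 replicate 1 to P7 replicate 1 (0.38 ± 0.22, adjusted p = 0.366), and after GC correction the change was 0.10. The Rieske iron-sulfur protein Uqcrfs1 (0.18) and the small subunits Uqcr11 (0.48), Uqcrq (0.42), Uqcrb (0.26), Uqcr10 (0.19) and Uqcrh (0.04) lay between the core proteins in change.

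Cycs, the soluble electron carrier between complexes III and IV (chr6:50562563-50566538), measured 932, 956, 1108 and 523 FPKM in P1 and 618, 616, 1251 and 999 in P7. P7 replicates 1 and 2 were below 3 of the P1 hearts and P7 replicate 3 was above all of them (-0.03 ± 0.31, adjusted p = 0.960). The log2 ratio of Cycs to its partner Cyc1 within a heart was 1.45, 1.63, 1.78 and 1.19 in P1 and 0.85, 0.74, 1.33 and 1.49 in P7. The stage means were 1.51 ± 0.25 and 1.10 ± 0.37 (SD, n = 4), a difference of -0.41 that did not pass (exact permutation test, two-sided, p = 0.171, adjusted p = 0.429 over 5 ratios tested). After correction for transcript GC content the difference was 0.16. Cycs has the lowest GC content of the 36 genes in the transcripts used here (40.8%).

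In complex IV, 5 of 6 genes had positive changes of similar size and Cox7b had a negative one. Cox5b, a zinc-binding subunit (chr1:36691459-36693385), measured 3091, 2955, 2497 and 3632 FPKM in P1 and 5386, 3514, 6393 and 4602 in P7, and P7 replicate 2 was below P1 replicate 4 (0.69 ± 0.27, adjusted p = 0.192, and 0.79 after GC correction). Cox6c (0.50), Cox6b1 (0.42), Cox7c (0.39) and Cox5a (0.39), the other nuclear subunits of the set, had adjusted p of 0.336 to 0.421.

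Cox7b, a small transmembrane subunit (chrX:106015649-106022450), measured 5649.8, 6176, 7270.2 and 3328 FPKM in P1 and 2531, 2584, 3488 and 2943 in P7. Its means were 5606 ± 1662 (SD, n = 4) and 2886 ± 441, and the only overlap was P1 replicate 4, which was below P7 replicate 3. The log2 fold change was -0.91 ± 0.29 (SE) with adjusted p = 0.108, so it was not called. Without P1 replicate 4 it was called lower in P7 (-1.15, adjusted p = 0.0278). Cox7b was the most abundant of the 36 transcripts in 3 of the 4 P1 hearts and held rank 2 in P1 replicate 4, and it held rank 3 or 5 in the P7 hearts.

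Set against the median of the other 5 complex IV genes in the same heart, Cox7b was higher by 1.07, 1.55, 1.54 and 0.96 in the P1 hearts on the log2(FPKM + 1) scale. In the P7 hearts the same difference was -0.29, 0.20, -0.28 and -0.08. The means were 1.28 ± 0.31 and -0.11 ± 0.23 (SD, n = 4), and the stages did not overlap. This comparison was chosen after its values were seen and carries no test. Scaling of a whole heart does not enter it. Cox7b had a GC content of 42.0%, the second lowest of the 36, and after GC correction its change was -0.63 (adjusted p = 0.284).

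**Figure D2:**
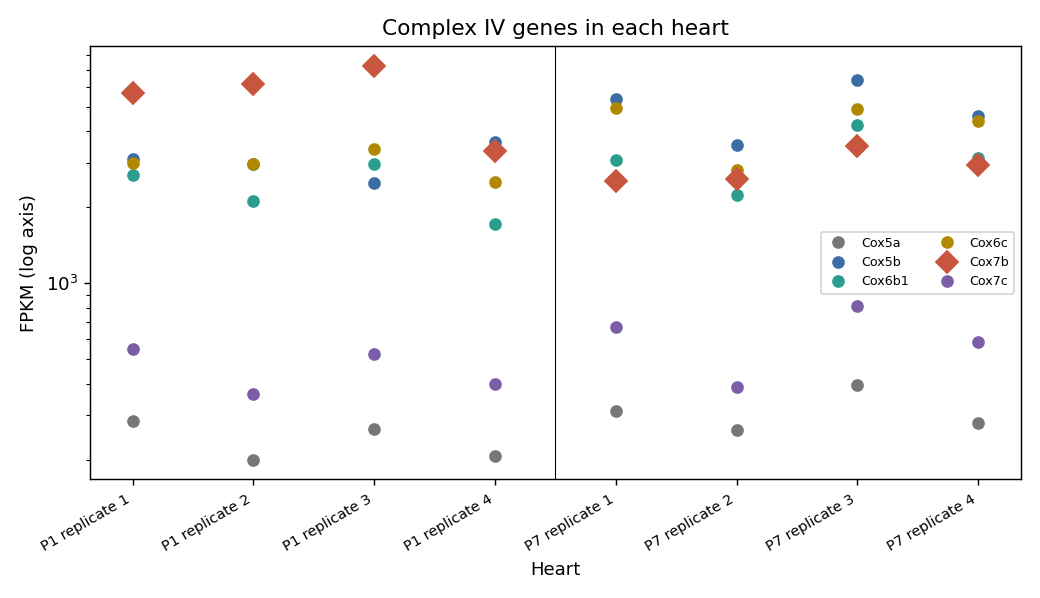
FPKM (y axis, log) of the 6 complex IV genes in each of the 8 hearts (x axis, P1 on the left, P7 on the right). Cox7b (large diamonds) is above the other genes in P1 replicates 1 to 3 and among or below Cox5b, Cox6c and Cox6b1 in the P7 hearts.

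Complex V consists of a catalytic F1 part (alpha, beta, gamma, delta and epsilon) and a membrane part with the rotating c-ring. Atp5d, the delta subunit of F1 (chr10:80115803-80145818), had the highest change of the 15 genes. It measured 87.1, 66.7, 49.2 and 83.2 FPKM in P1 and 96.6, 101, 149.9 and 123 in P7, with every P7 heart above every P1 heart (0.72 ± 0.23, adjusted p = 0.115). Its transcript has the highest GC content of the 36 (61.1%), and after GC correction the change was 0.29 (adjusted p = 0.485). The deposited Atp5d locus also holds the coding gene Stk11 on the same strand, and whether its FPKM includes fragments of that gene was not tested.

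Atp5h, subunit d of the peripheral stalk (chr11:115415689-115419962), measured 1819.7, 1622, 1442 and 1656 FPKM in P1 and 2104, 1974, 3340.1 and 2528 in P7, again without overlap (0.58 ± 0.24, adjusted p = 0.229, and 0.61 after GC correction). Atp5f1, subunit b of the same stalk, had the lowest change of the complex. It measured 770.1, 692, 682 and 824 FPKM in P1 and 636, 471, 939 and 697 in P7 (-0.15 ± 0.24, adjusted p = 0.709). The catalytic beta subunit Atp5b (0.40), alpha subunit Atp5a1 (0.35), gamma subunit Atp5c1 (0.11) and epsilon subunit Atp5e (0.27) had positive changes and were not called, with adjusted p of 0.445 to 0.772. The other 5 stalk and membrane subunits outside the c-ring (Atp5j, Atp5j2, Atp5k, Atp5l and Atp5o) ranged from 0.24 to 0.43.

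Atpif1, which binds F1 and blocks ATP hydrolysis, measured 701, 718, 743 and 836 FPKM in P1 and 1182, 1039, 1407 and 1111 in P7. Its P1 hearts lay close together, 749 ± 59.9 against 1185 ± 159 in P7 (SD, n = 4), and the groups did not overlap (0.65 ± 0.21, adjusted p = 0.110, and 0.55 after GC correction). The log2 ratio of Atpif1 to Atp5b in a heart was -0.96, -0.80, -0.39 and -1.35 in P1 and -0.68, -0.30, -0.81 and -0.69 in P7. The means, -0.87 ± 0.40 and -0.62 ± 0.22 (SD, n = 4), overlapped (exact permutation test, two-sided, p = 0.343, adjusted p = 0.571 over 5 ratios). The deposited Atpif1 locus spans 272 kb (chr4:132530555-132802254, GRCm38) against 3.11 kb for the gene, and holds 3 other coding genes on the same strand (Xkr8, Smpdl3b and Themis2), and whether its FPKM includes fragments of these neighbours was not tested. The loci of Cox6c, Uqcrb, Atp5j, Atp5d and Atp5f1 are also wide and span 2.57 to 45.8 times the gene. Those of Uqcrb and Atp5d hold 1 other coding gene on the same strand (Mterf3 and Stk11), and those of Cox6c, Atp5j and Atp5f1 hold 0. The locus of Atp5o spans 316 kb, 1.30 times the annotated gene, and also carries the symbol Donson. It holds 2 other coding genes on the same strand (Donson and Cryzl1). That of Cox5a spans 1.97 times the gene and holds 1 (Fam219b). Whether fragments of these neighbours enter the FPKM of Atp5o or Cox5a was not tested.

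**Figure D3:**
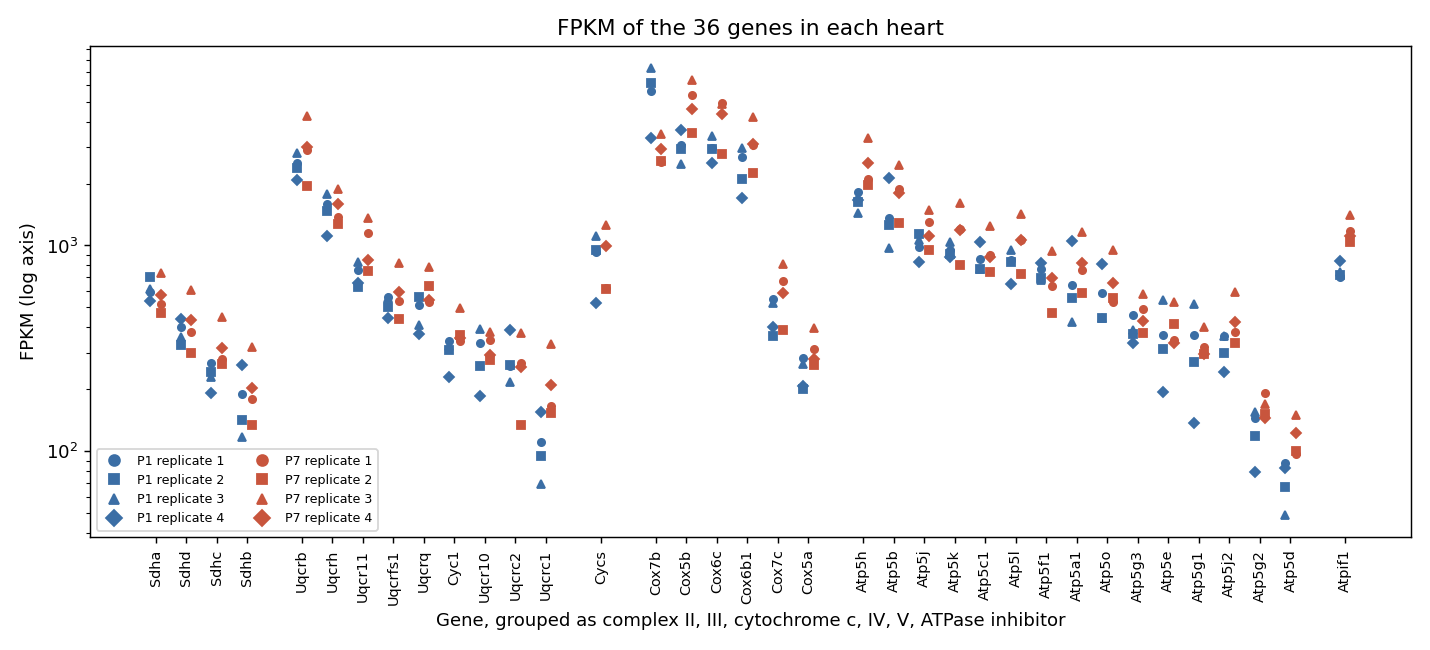
FPKM (y axis, log) of each of the 36 genes (x axis, grouped by complex and ordered by P1 mean) in each heart, P1 in blue and P7 in red, with 1 marker shape per replicate number. The stages overlap for 32 genes, and P7 replicate 3 (red triangles) is the highest P7 heart for 34.

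The c-ring of ATP synthase is made from one protein encoded by Atp5g1, Atp5g2 and Atp5g3, whose mature protein is the same and whose import signals differ. Because such genes could share reads, the coding ends were compared in GENCODE M21 (GRCm38). Over the last 228 coding bases, 85.1% were identical between Atp5g1 and Atp5g2, 79.8% between Atp5g1 and Atp5g3 and 78.5% between Atp5g2 and Atp5g3, and the longest identical run was 21 bases. The last 90 coding bases are shown, all in the last coding exon on the minus strand (Atp5g1 chr11:96073104-96073193, Atp5g2 chr15:102663014-102663103, Atp5g3 chr2:73908593-73908682), with capitals where a gene differs from at least 1 of the other two.
Atp5g1: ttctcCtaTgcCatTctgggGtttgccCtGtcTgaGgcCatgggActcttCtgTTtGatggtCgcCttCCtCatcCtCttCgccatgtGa
Atp5g2: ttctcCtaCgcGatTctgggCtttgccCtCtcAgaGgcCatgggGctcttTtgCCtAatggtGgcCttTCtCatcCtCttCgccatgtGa
Atp5g3: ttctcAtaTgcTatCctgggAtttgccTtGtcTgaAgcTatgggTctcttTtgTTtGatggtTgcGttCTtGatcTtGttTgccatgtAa

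Atp5g2 had the lowest FPKM of the 3 in all 8 hearts, and Atp5g3 the highest in all but P1 replicate 3, where Atp5g1 was highest. Atp5g1 measured 367, 272, 519 and 138 FPKM in P1 and 321, 298, 401 and 297 in P7 (0.17 ± 0.34, adjusted p = 0.772). Atp5g2 measured 145, 118, 156 and 78.9 FPKM in P1 and 192, 152, 169.6 and 145 in P7 (0.44 ± 0.23, adjusted p = 0.334). For Atp5g3 the values were 459.8, 371, 389 and 334 FPKM in P1 and 489, 375, 578 and 429 in P7 (0.26 ± 0.21, adjusted p = 0.492).

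As a share of their summed FPKM, Atp5g2 held 14.9%, 15.6%, 14.7% and 14.3% in the P1 hearts and 19.1%, 18.5%, 14.8% and 16.7% in the P7 hearts. The difference of 2.40 percentage points did not pass (exact permutation test, two-sided, p = 0.0857, adjusted p = 0.429 over 5 ratios). Atp5g1 held 36.8% ± 9.74 (SD, n = 4) in P1 and 34.3% ± 1.73 in P7 (exact permutation test, p = 0.629, adjusted p = 0.786), and Atp5g3 held 48.3% ± 9.86 and 48.4% ± 2.12 (exact permutation test, p = 0.943, adjusted p = 0.943). The spread of the P1 shares came from replicates 3 and 4, which lay at 48.8% and 25.0% for Atp5g1.

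The complexes were compared by the median log2(FPKM + 1) of their genes in each heart, as a description. Complex IV stood highest in every heart, at 11.30 ± 0.20 (SD, n = 4) in P1 and 11.54 ± 0.28 in P7. Its rank holds for the 6 complex IV genes of this set only, whose P1 means ran from 239 (Cox5a) to 5606 FPKM (Cox7b). The isoforms and further complex IV subunits outside the set had P1 means from 6.78 (Cox6b2) to 933 FPKM (Cox8a) and do not enter the median. It was followed by complex V (9.30 ± 0.26 and 9.44 ± 0.32), complex III (8.82 ± 0.20 and 9.13 ± 0.35) and complex II (8.28 ± 0.13 and 8.52 ± 0.38). The order was the same in all 8 hearts. The distance between complexes IV and V was 2.14, 2.16, 2.33 and 1.35 in P1 and 2.13, 2.11, 2.02 and 2.12 in P7, with P1 replicate 4 apart. No pair of complexes had stages that did not overlap, and the mean distance between 2 complexes moved by -0.07 to 0.17 from P1 to P7. The median fold change was 0.40 in complex IV, 0.30 in complex V, 0.26 in complex III and 0.18 in complex II. With a heart left out it ran from 0.27 to 0.58 in complex IV, from 0.16 to 0.47 in complex V, from 0.11 to 0.40 in complex III and from -0.02 to 0.35 in complex II, each lowest without P7 replicate 3 and highest without P7 replicate 2. The order of complexes II, III and V by fold change depended on the setting. Without P1 replicate 4 complex II (0.29) was above complexes V (0.25) and III (0.18), with quantile normalization complex III (0.23) was above complex V (0.15), and after GC correction complex III (0.10) was below complex II (0.12). Median-ratio scaling, which shifts the complexes nearly alike, gave 0.16 in complex IV, 0.06 in complex V, 0.02 in complex III and -0.06 in complex II.

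**Figure D4:**
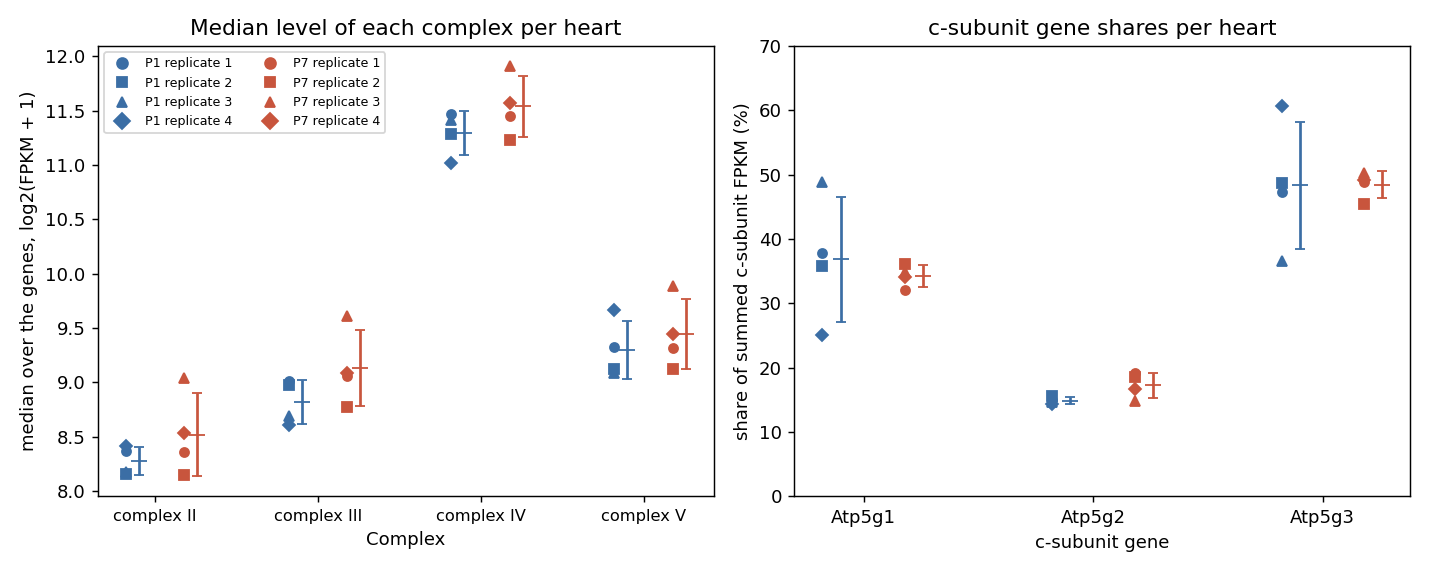
Left, median log2(FPKM + 1) of the genes of each complex in each heart. Right, share of Atp5g1, Atp5g2 and Atp5g3 in their summed FPKM (%). Points are hearts, with the mean and SD of 4 hearts beside them. The complexes, as the genes of this set, keep 1 order in all hearts, and the P1 shares of Atp5g1 run from 25.0% to 48.8%.

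Other genes of oxidative phosphorylation are given for comparison. Their counts of calls stand beside 7.74% of annotated loci called higher and 0.401% called lower. Of 36 nuclear subunits of complex I, the NADH dehydrogenase, 0 were called (limma), and the median log2 fold change was 0.39. An unadjusted p under 0.05 (limma) was found for 10 of them, all higher in P7, against 25.6% of annotated loci in that direction. Ndufs1, a subunit of its electron input arm, had the lowest change (-0.24). Of 11 tissue isoforms and further subunits of complexes IV and V, 1 was called higher, a count near the share over annotated loci. Cox4i2, an isoform of the complex IV subunit 4, measured 7.47, 8.29, 8.09 and 7.11 FPKM in P1 and 17.3, 14.7, 24.5 and 18.6 in P7 (1.16 ± 0.19, adjusted p = 0.0109), and Cox6a1 had the lowest change (-0.44). Cox4i2 was called in 21 of 22 alternative settings and was not called after GC correction (0.82, adjusted p = 0.0632). Cox4i1 was not analysed here.

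Of 22 assembly factors of complexes II to V, 1 was called higher and 0 lower, against 7.74% and 0.401% of annotated loci. This count is near those shares. Atpaf2, a chaperone for the F1 alpha subunit, measured 13.9 to 24.5 FPKM in P1 and 29.97 to 48.2 in P7 (0.93 ± 0.23, adjusted p = 0.0427), and Lyrm7, which assists complex III, had the lowest change (-0.45, adjusted p = 0.533). Atpaf2 was called in 7 of 22 alternative settings and was not called after GC correction (0.84, adjusted p = 0.0842). The deposited Atpaf2 locus is wide, 50.3 kb against 17.8 kb for the gene, and holds 0 other coding genes on the same strand. Whether its FPKM includes fragments from outside the gene was not tested. Of 13 other mitochondrial genes, 0 were called and 1 had an unadjusted p under 0.05 (limma), lower in P7, against 4.1% of annotated loci in that direction. They ran from Hspd1, a matrix chaperone (-0.71, adjusted p = 0.146), to Cs, citrate synthase (0.44, adjusted p = 0.372). The 6 mitochondrially encoded subunits of complexes III to V share 1 locus in the files. It spans the mitochondrial chromosome (1 to 16299) and also carries both ribosomal RNAs, complex I subunits and transfer RNAs, so its value is not one of these subunits alone. Its FPKM was 965, 932, 1217 and 432 in P1 and 854, 1239, 1697 and 1009 in P7 (0.48, adjusted p = 0.428). The change was 0.17 without P1 replicate 4 and 0.76 after GC correction, which rests on a single transcript's GC content for the whole locus.

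Transcript GC content moved with the changes. Across the 36 genes, Spearman's rho of the log2 fold change with GC content was 0.48, against 0.53 over 15430 annotated loci, and with transcript length it was -0.22 (across genes, which share libraries, as descriptions).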

How the data were processed

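Whole-heart RNA of 4 P1 and 4 P7 mice was measured by paired-end RNA-seq. The authors deposited FPKM per locus. Their service provider had aligned reads to GRCm38 with Ensembl as the annotation reference, summed features and normalized for length and library size. The aligner is not given in the sources used here. Of the 43172 loci tested, 17960 carried a gene symbol. Replicate numbers come from the labels and do not pair animals. Nothing beyond the separate animals is known of batches.

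Symbols joined by commas were split and matched ignoring case, and for a symbol with several loci (2 of the 36 genes) the locus highest on average was taken. Loci that reached an FPKM of 1 in any heart were compared on log2(FPKM + 1) with limma 3.58.1 (R 4.3.3; eBayes with trend, all 8 hearts, no covariates), with Benjamini-Hochberg adjustment over the 43172 loci. A fold change on this scale understates that of low loci. Ratios within a heart were compared with exact permutation tests over 70 assignments, whose smallest p is 0.0286. No test was made between complexes. Transcript GC content and length came from GENCODE M21 transcripts, known for 85.9% of tested annotated loci; each heart's deviation was smoothed against them (lowess, span 0.3) and subtracted.

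The genes and lists were chosen with earlier results of these data known. Named are, per complex, the highest and lowest change, every called gene, the c-subunit genes, Atpif1 and Cycs, and for other lists the called genes and both extremes; a gene that this rule names among the other lists is not reported here. Alternatives changed the scaling (median-ratio, quantile, equal annotated sums), the pseudocount (0.1), the filter (none, or all 8 hearts), the model (replicate block, array weights, eBayes with no trend), the call (without the fold limit), the loci (those with 1 symbol), the GC correction and the hearts (each left out); length correction was chosen after seeing the data. The scripts were tested on simulated data. Tables and permutations used scipy 1.17.1 and pandas 2.3.3 under Python 3.11.15.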

Additional observations from a re-analysis of the deposited data

Results flagged for a closer look

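Among 90 groups of 4 values checked (the 36 genes, 5 ratios and 4 complex medians in each stage), 1 had a heart far from the other 3, where chance alone would give about 1 in 20. Cyc1 in P7 replicate 3 measured 497 FPKM against 344 to 369 in the other P7 hearts, a gap of 0.838 of the group's range.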

How the results depend on the processing

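The files hold no fragment counts, so the precision of single values rests on the 4 hearts of each stage. No gene of the 36 was called under most settings. Genes called higher numbered 2 when all 8 hearts had to reach an FPKM of 1 (Uqcrc1 and Atp5d) and 3 with array quality weights (Uqcrc1, Atp5d and Atpif1), with 1 called lower under those weights (Cox7b). Annotated loci called higher numbered 2424 of 12730 under that filter and 2773 of 17960 under those weights, where 178 were called lower. Leaving out a heart gave 0 to 1 called higher and 0 to 1 called lower, the calls being Uqcrc1 and Cox7b without P1 replicate 4. The median change of the 36 genes was 0.086 with median-ratio scaling and 0.17 to 0.44 with a heart left out, lowest without P7 replicate 3, and the complex I median was 0.15 with median-ratio scaling. Calls among the other lists, 2 higher in the main comparison, numbered 9 with the filter on all hearts, 10 with array weights, 0 after GC correction, 1 with GC and length correction, eBayes without trend, equal annotated sums, median-ratio scaling, no filter, quantile normalization or the replicate block, and 1 to 6 with a heart left out, most without P1 replicate 4. Calls lower, 0 in the main comparison, numbered 1 with the filter on all hearts, median-ratio scaling and quantile normalization, and 0 to 1 with a heart left out. Annotated loci called higher and lower numbered 1388 and 621 with median-ratio scaling, 1377 and 595 with quantile normalization and 383 and 27 after GC correction, against 1390 and 72.

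Of the 36 genes, 23 kept the sign of their change under all alternatives and 13, all with small changes, did not. With median-ratio scaling the change was -0.011 for Sdhb, -0.11 for Sdhd, -0.060 for Uqcrfs1, -0.20 for Uqcrh, -0.051 for Uqcr10, -0.13 for Atp5c1, -0.075 for Atp5g1 and -0.0011 for Atp5o. With quantile normalization it was -0.016 for Sdhb, -0.026 for Sdhd, -0.043 for Uqcrh and -0.045 for Atp5c1. With equal annotated sums it was -0.050 for Sdhd, -0.14 for Uqcrh, -0.067 for Atp5c1 and -0.013 for Atp5g1. After GC correction it was 0.017 for Sdha, 0.052 for Uqcrc2, -0.070 for Uqcr10, 0.26 for Cycs, -0.14 for Atp5g1 and -0.022 for Atp5j. With GC and length correction it was 0.018 for Uqcrc2, 0.23 for Cycs and -0.068 for Atp5g1. With a heart left out the change ran from -0.051 to 0.29 for Sdhd, from -0.39 to 0.10 for Uqcrc2, from -0.089 to 0.14 for Uqcrh, from -0.0075 to 0.35 for Uqcr10, from -0.26 to 0.11 for Cycs, from -0.025 to 0.22 for Atp5c1, from -0.32 to 0.014 for Atp5f1 and from -0.19 to 0.45 for Atp5g1.

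Of the ratios, the difference in log2 Cycs to Cyc1 was 0.16 after GC correction and 0.15 with GC and length correction, and the difference in the Atp5g3 share was -0.76 percentage points with length correction. With a heart left out, which allows no p under 0.0571, the Atp5g1 share differed by -6.46 to 1.46 and the Atp5g3 share by -3.80 to 4.24 percentage points. The replicate block could not be read as a pairing, since deviations of same-numbered hearts correlated at -0.10 to 0.12. Under that block no gene of the 36 was called, 970 annotated loci were called higher and 82 lower, and the smallest p it allows for a ratio is 0.125. The cause of these differences was not tested.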
